A study of Mus musculus with 16 samples.

Results

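Transcripts encoded by the mitochondrial genome were followed in mouse tibialis anterior, a fast leg muscle, in 4 genotypes at postnatal day 30. The members were all rows of the deposited table whose Ensembl identifier maps to a symbol starting with mt-. There were 9 such rows among 831 listed genes: mt-Nd1, mt-Nd2, mt-Nd4, mt-Nd5, mt-Cytb, mt-Co2, mt-Atp6 and the transfer RNA genes mt-Tm and mt-Tw. RNA-seq was performed on 16 libraries of total RNA, 4 in each group. The mdx/miR-133b-/- group combined the mdx genotype, a model of muscular dystrophy without functional dystrophin, with loss of the microRNA miR-133b. The mdx group carried the mdx genotype alone, the miR-133b-/- group lacked miR-133b alone, and the Control group was wild type. The labels give no strain, sex or source animal for a library, so the p-values measure the spread between libraries, which may be technical.

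The mitochondrial genome is a small circle inside the organelle. It encodes core subunits of respiratory complexes I, III, IV and V, together with the ribosomal and transfer RNAs that translate them, whereas the other subunits come from the nucleus. Most of its genes are transcribed as long RNAs that are cut at the transfer RNAs, and the messages are then trimmed and tailed with short poly(A). Muscle fibres rely on these complexes for ATP, and mitochondrial messages are among the most abundant in muscle.

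The reference annotation of GRCm38 places 37 genes on the mitochondrial chromosome, of which 13 code for proteins, 22 for transfer RNAs and 2 for ribosomal RNAs. The 9 members comprised 7 protein genes and 2 transfer RNA genes, and all 9 lay on the plus strand. The other 28 genes were not analysed here. GC content ran between 35.6% and 44.9% in the members, with a median of 37.6%, against a median of 49.1% over all listed genes. Whether reads were counted by strand is not given in the sources used here. In the annotation mt-Nd5 overlaps the antisense gene mt-Nd6 by 14 bases, mt-Nd2 overlaps mt-Tw by 2 bases and mt-Atp6 overlaps mt-Atp8 by 43 bases.

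The 2 transfer RNA genes are shown because mt-Tw passed the test in a contrast in which mt-Tm did not. They flank mt-Nd2 on the same strand, and the capitals mark the anticodon. The sequences were read from the GENCODE transcripts of GRCm38, mt-Tm at chrM:3845-3913 and mt-Tw at chrM:4950-5016. The methionine transfer RNA mt-Tm reads the start codon, and mt-Tw carries tryptophan, which mitochondria also insert at UGA.
mt-Tm: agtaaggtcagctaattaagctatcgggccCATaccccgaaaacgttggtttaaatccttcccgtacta
mt-Tw: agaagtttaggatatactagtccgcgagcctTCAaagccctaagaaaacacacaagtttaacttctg

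Some mitochondrial genes have copies in nuclear DNA, and a read from either place can match both. The first 60 bases of mt-Co2 (chrM:7013-7072, plus strand) and of its copy Gm28661 (chr1:24615506-24615565, minus strand) are shown with the first 60 bases of mt-Atp6 (chrM:7927-7986, plus strand) and of its copy Gm10925 (chr1:24614592-24614651, minus strand). Within each pair the printed bases were identical.
mt-Co2: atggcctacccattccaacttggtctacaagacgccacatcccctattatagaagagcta
Gm28661: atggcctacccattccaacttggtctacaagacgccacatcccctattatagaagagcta
mt-Atp6: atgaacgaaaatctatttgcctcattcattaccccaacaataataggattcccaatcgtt
Gm10925: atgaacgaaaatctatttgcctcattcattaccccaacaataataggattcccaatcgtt

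The match ran over the whole annotated copy, with 0 mismatches in 681 bases for mt-Co2 and 0 in 678 bases for mt-Atp6. For mt-Nd4 the copy Gm28439 stopped partway. It matched the first 876 of 1378 bases with 0 mismatches and left 502 bases without a counterpart. The stretch across that end is printed at chrM:11013-11072, with capitals for the bases past the copy, beside the last 30 bases of the copy at chr1:24611535-24611564 on the minus strand.
mt-Nd4: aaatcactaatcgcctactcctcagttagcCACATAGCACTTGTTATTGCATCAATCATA
Gm28439: aaatcactaatcgcctactcctcagttagc

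Levels per kilobase of gene differed widely within one genome. In Control muscle mt-Nd1, a complex I subunit, averaged 279528 ± 65375 scaled reads per kb (SD, n = 4). It was followed by mt-Cytb, the complex III cytochrome, at 145878 ± 33360 and by the complex I subunits mt-Nd5 at 138254 ± 35606, mt-Nd2 at 106212 ± 23077 and mt-Nd4 at 74147 ± 9023 scaled reads per kb. In this order the neighbours mt-Cytb and mt-Nd5 differed by less than the SD of either, and mt-Nd5 and mt-Nd2 by less than the SD of mt-Nd5. The transfer RNA genes mt-Tw and mt-Tm, of 67 and 69 bases, averaged 17735 ± 1771 and 2071 ± 739 scaled reads per kb. Whether reads at these genes come from the cut transfer RNA or from long RNA not yet cut was not tested. Their counts are therefore uncertain as levels of the transfer RNAs. Last came mt-Co2, a catalytic subunit of cytochrome c oxidase, at 767 ± 104 and mt-Atp6, the proton channel subunit of ATP synthase, at 211 ± 54.4 scaled reads per kb.

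The level per kb of mt-Nd1 was thus 1327 times that of mt-Atp6, although both lie on the same strand. Windows of 50 bases that also occur in an annotated nuclear transcript made up 100% of mt-Co2, 99.5% of mt-Atp6 and 62.2% of mt-Nd4. The share was 8.19% in mt-Nd2 and 7.61% in mt-Nd5, and it was 0% in mt-Nd1, mt-Cytb, mt-Tm and mt-Tw. Spread over only the 502 bases past its copy, mt-Nd4 in Control came to 203534 ± 24769 scaled reads per kb (SD, n = 4). How the counting treated reads that match both places is not given in the sources used here, and its part in these levels was not tested. Since both mt-Co2 and mt-Atp6 share nearly all windows with nuclear copies, their counts are uncertain as levels of the mitochondrial gene.

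**Figure D1:**
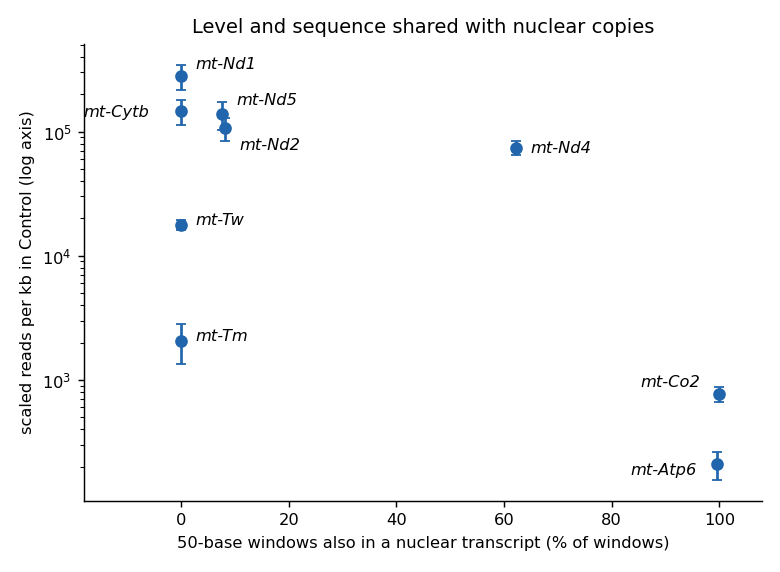
Scaled reads per kb in Control muscle (log axis, mean and SD of 4 libraries) against the percentage of each gene's 50-base windows that also occur in a nuclear transcript. mt-Co2 and mt-Atp6, at 100% and 99.5%, sit lowest, while the 5 genes with the highest levels have between 0% and 62.2% of their windows shared.

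Following these levels, mt-Nd1, mt-Nd2, mt-Nd4, mt-Nd5 and mt-Cytb were treated as 5 high-count members, and mt-Co2, mt-Atp6, mt-Tm and mt-Tw as 4 low-count members. The low-count members together held between 0.179% and 0.421% of the mitochondrial reads of a library. Fewest were those of mt-Tm, with 34 to 345 reads per library before scaling, and mt-Atp6 had 83 to 717. The other 7 members had at least 367 reads in every library. Replicates of the high-count members moved together. With group means taken off, Pearson's r over the 16 libraries lay between 0.45 and 0.87 for the 10 pairs of them, a description only, as a library's members share its depth and scaling factor.

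The table holds reads multiplied by 1 factor per library, and library totals over listed genes ran between 2356990 and 6000033 reads. The listed genes are a selection. Every one of them differed at least 1.72-fold between the mdx/miR-133b-/- and miR-133b-/- means, whereas the smallest ratio in any of the other comparisons was at most 1.02. Comparisons that involve either of those groups therefore share libraries with the selection. The comparison of mdx with Control shares none, but it too concerns loss of dystrophin. The description field of 14 of the 16 samples carried the code of another sample, so groups were taken from the titles. With groups taken from those codes instead, each group held 1 library of every title group, and 0 listed genes were called in any comparison by limma. Such mixing leaves few differences to call in genes selected on title groups, so this count does not decide between the labels. The sum of all listed scaled values also differed by group. It ran between 1474136 and 1603979 in mdx/miR-133b-/- libraries, between 1744996 and 2017477 in mdx libraries, between 1926560 and 3359432 in miR-133b-/- libraries and between 2353868 and 3085210 in Control libraries. Muscle markers were present throughout, with 4 of 11 fast-fibre markers listed and none of them at 0 in all libraries of a group.

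Loss of dystrophin alone came with lower values of every member, the transfer RNA genes included. All 9 members fell in mdx compared with Control muscle (limma on log2 of the scaled value plus 1, Benjamini-Hochberg adjusted p under 0.05 over all listed genes), whereas 21.7% of the listed genes were called lower. The median log2 difference was -1.02 over the members and 0.44 over all listed genes. The listed genes were selected on another contrast of dystrophin loss. In it all 9 members had a lower mean, as did 40.1% of the listed genes. Shares and medians over all listed genes are therefore not a neutral background here. In each of the 9 the mdx libraries lay below all Control libraries, which was the case for 24.2% of the listed genes. The direction held under each scaling tried, but with scaling to the listed reads outside the mitochondrial genome 7 of the 9 were called, the exceptions being mt-Nd1 at -0.42 and mt-Co2 at -0.30 (limma adjusted p = 0.125 and 0.207). In bulk muscle, fewer cells of a type and less RNA per cell cannot be told apart.

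Among the complex I subunits, mt-Nd5 had 114111, 118130, 131418 and 120321 scaled reads in the mdx libraries, against 330338, 275868, 181301 and 221196 in the Control libraries. The mdx libraries lay close together and the Control libraries spread over a wide range above them. The log2 difference was -1.02 ± 0.21 (SE; limma adjusted p = 0.000456), which is 2.03-fold lower.

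mt-Nd4 had 46901, 47662, 66846 and 45477 scaled reads in the mdx libraries, against 111209, 97970, 86476 and 113040 in the Control libraries. Replicate 3 was the highest mdx library and still lay below the lowest Control library. Its log2 difference was -0.99 ± 0.23 (SE; limma adjusted p = 0.00143). Reads assigned to the nuclear copy Gm28439 averaged 63.7 ± 17.4 in mdx and 161 ± 19.7 scaled reads in Control libraries (SD, n = 4 each). They fell by 1.35 on the log2 scale (limma adjusted p = 0.00094). All 876 bases of the copy match mt-Nd4, so these reads may be mitochondrial, and their origin was not tested.

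mt-Nd1 had 152431, 146056, 161416 and 165503 scaled reads in the mdx libraries, against 358741, 256783, 232889 and 221621 in the Control libraries. Control replicate 1 was the highest, and the groups did not overlap. The log2 difference of mt-Nd1 was the smallest of the high-count members, at -0.75 ± 0.26 (SE; limma adjusted p = 0.0169). Without Control replicate 1 it was -0.60 and missed the threshold (limma adjusted p = 0.0676).

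The other high-count members behaved alike. mt-Nd2 ran between 43159 and 58105 scaled reads in mdx and between 84577 and 142191 in Control libraries, and fell by 1.16 on the log2 scale (limma adjusted p = 0.000789). For mt-Cytb the ranges were 79704 to 96315 in mdx and 133207 to 218611 in Control libraries, and it fell by 0.89 on the log2 scale (limma adjusted p = 0.00118), or by 0.56 with scaling to the listed reads outside the mitochondrial genome.

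Of the low-count members, mt-Tw had 397, 448, 483 and 406 scaled reads in the mdx libraries, against 1299, 1214, 1020 and 1220 in the Control libraries. The groups lay far apart, each within a narrow range. Its log2 difference of -1.45 ± 0.21 (SE) had the lowest adjusted p of the members (limma adjusted p = 4.02e-05). With trends on GC content and length removed it was -0.70 (limma adjusted p = 0.0408), and only mt-Co2 then had a higher adjusted p. The trends were fitted over all 831 listed genes, 788 of them protein coding. How well they hold at the 67 bases of mt-Tw and the 69 bases of mt-Tm was not tested in any contrast.

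mt-Tm ranged between 20.8 and 56.8 scaled reads in mdx and between 71.7 and 186 in Control libraries. Its log2 difference was the largest of the members, at -1.75 ± 0.41 (SE; limma adjusted p = 0.00151), and also the least precise. With the same trends removed it was -0.95 (limma adjusted p = 0.0153), a smaller difference than those of mt-Nd2, mt-Nd5 and mt-Nd4 in that fit. mt-Atp6 had 45.6, 56.9, 86.1 and 74.7 scaled reads in the mdx libraries, against 134, 190, 148 and 101 in the Control libraries. It fell by 1.12 on the log2 scale (limma adjusted p = 0.000951), and the mdx libraries again lay below all Control libraries.

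mt-Co2 had 354, 310, 359 and 328 scaled reads in the mdx libraries, against 623, 485, 528 and 463 in the Control libraries. This was the smallest log2 difference of the 9, -0.63 ± 0.23 (SE; limma adjusted p = 0.0229). It missed the threshold without Control replicate 1, at -0.54 (limma adjusted p = 0.0705), without mdx replicate 2, at -0.59 (limma adjusted p = 0.0575), and with trends on GC content and length removed, at -0.41 (limma adjusted p = 0.0735).

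**Figure D2:**
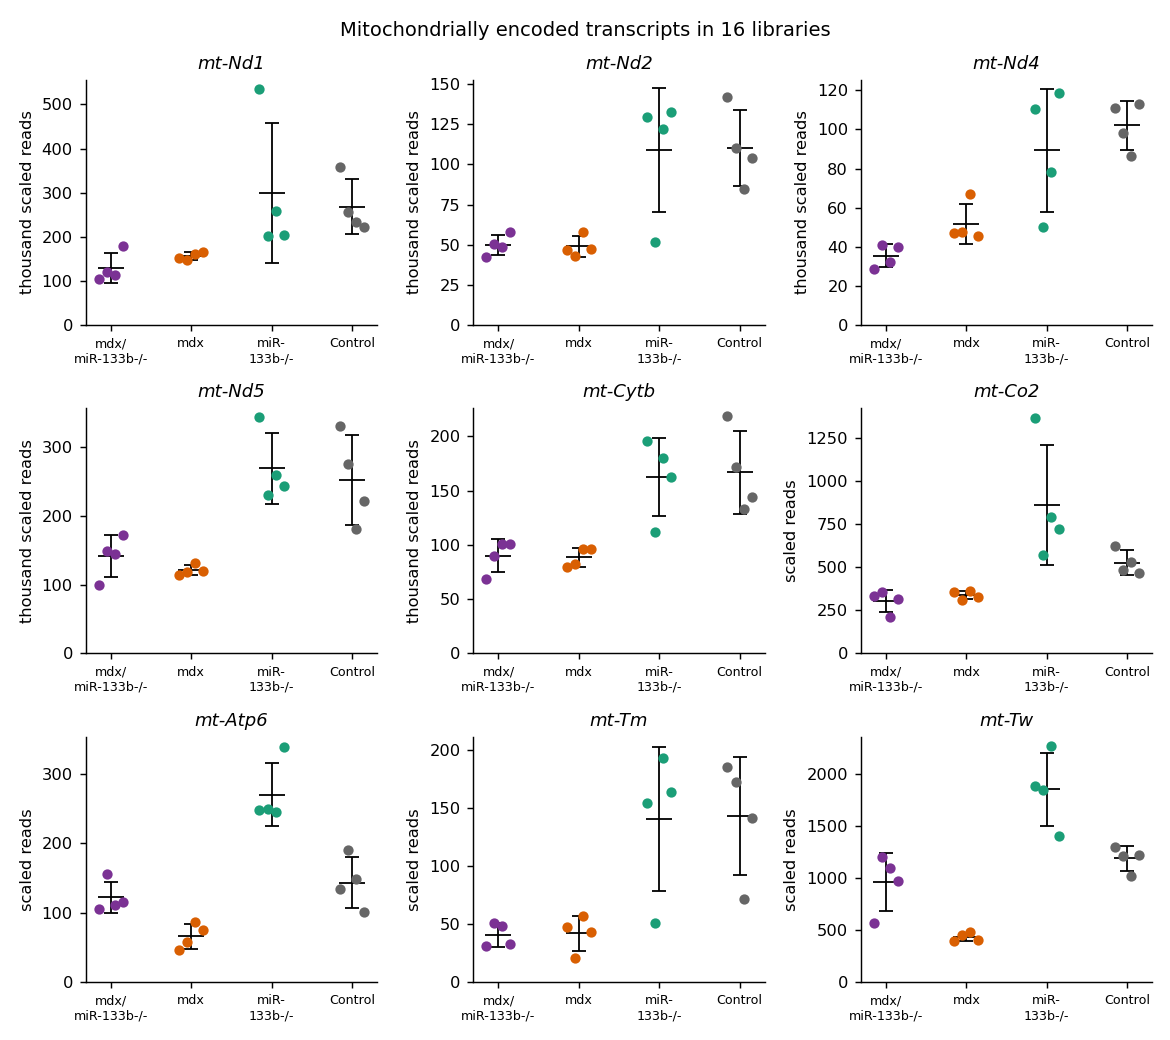
Scaled reads of each member in every library, as 1000s of reads for the 5 high-count members; points are libraries, the long dash is the mean and the bars are the SD (n = 4 per group). In all 9 panels the mdx libraries lie below the Control libraries, and in the mt-Tw and mt-Atp6 panels the mdx/miR-133b-/- libraries lie above the mdx libraries.

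A share within each library does not depend on the scaling factors. Its base is the reads of the selected genes only, so it also depends on how the other listed genes moved. The 9 members took 23.0%, 24.9%, 25.5% and 27.3% of the listed reads in the mdx libraries, against 37.7%, 36.5%, 30.6% and 30.2% in the Control libraries. The means were 25.2 ± 1.76% in mdx and 33.7 ± 3.89% in Control libraries (SD, n = 4 each), and no mdx library reached the lowest Control library. The 95% Wilson interval of a share was at most 0.119 percentage points wide, which covers counting error only. Of the reads of the high-count members, the complex I messages together held 81.0 ± 0.869% in mdx and 81.5 ± 0.441% in Control libraries (SD, n = 4 each). All other reads were those of mt-Cytb, so this sum only restates the share of mt-Cytb. The single shares of the complex I messages differed more than their sum. mt-Nd2 held between 9.87% and 11.3% in mdx and between 11.8% and 12.9% in Control libraries, without overlap. mt-Nd1 averaged 33.6 ± 1.59% in mdx and 29.8 ± 2.29% in Control libraries. Its groups overlapped, at 31.4% to 34.9% in mdx and 27.6% to 32.4% in Control libraries. These shares are parts of the same total, so they do not move independently.

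Nuclear genes of the same complexes were set beside them from lists of known subunits. Of 75 such genes 10 were listed, and 2 of these 10 fell in mdx compared with Control muscle, where 21.7% of all listed genes were called lower. Their median log2 difference was -0.27. The genes that fell were Cox5a, a subunit of complex IV, which averaged 14198 ± 1388 in mdx and 20464 ± 750 scaled reads in Control libraries, and Ndufs1, the large iron-sulphur subunit of complex I, which averaged 9033 ± 196 in mdx and 12128 ± 473 scaled reads in Control libraries (SD, n = 4 each). Their log2 differences were -0.53 and -0.42 (limma adjusted p = 0.0434 and 0.0246). The subunits Uqcr10 of complex III, Atp5a1 and Atp5f1 of complex V and Ndufb5 of complex I had log2 differences of -0.16, -0.36, -0.11 and -0.29, and none of these passed the test. Nor did any of the 4 listed citrate cycle genes, with a median log2 difference of -0.33; Mdh2, the malate dehydrogenase, had -0.33 and Suclg1, a subunit of succinyl-CoA ligase, -0.39. The difference between nuclear and mitochondrial genes was not tested.

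Regulators of mitochondrial biogenesis were represented by 2 of 11 genes. Ppara, a nuclear receptor that drives fatty acid oxidation genes, averaged 151 ± 24.8 in mdx and 361 ± 136 scaled reads in Control libraries, and fell by 1.19 on the log2 scale (limma adjusted p = 0.00531). Perm1, a muscle regulator of oxidative genes, averaged 2404 ± 521 in mdx and 4002 ± 395 scaled reads in Control libraries, and fell by 0.75 on the log2 scale (limma adjusted p = 0.00717). None of 33 genes for mitochondrial genome maintenance, transcription and RNA processing, none of 30 for the mitochondrial ribosome and none of the 4 complex II genes was among the listed genes, so these were not analysed here.

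Listed markers of other cell types also differed in this contrast. They had passed the selection of the table on another contrast of dystrophin loss, so this movement is not independent of the selection. Of all 831 listed genes, 370 were called higher and 180 lower by limma in mdx compared with Control muscle. The summed scaled reads of 13 of 20 macrophage markers ran between 7789 and 11949 in mdx and between 1590 and 2473 in Control libraries. Summed over 8 of 12 markers of regenerating fibres, values ran between 9097 and 12664 in mdx and between 1364 and 3857 in Control libraries. Summed over 11 of 14 fibroblast and matrix markers, they ran between 48732 and 49586 in mdx and between 14972 and 27050 in Control libraries. The 4 fast-fibre markers summed to between 375355 and 552424 in mdx and between 592292 and 730110 in Control libraries. No listed marker was at 0 in all libraries of a group, and the part of these cell types in the mitochondrial result was not tested.

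Loss of miR-133b on top of the mdx genotype was addressed by mdx/miR-133b-/- against mdx muscle. Here mt-Tw and mt-Atp6 rose, 2 of the 9 members, whereas 7.46% of the listed genes were called higher. None of the 9 was called lower, against 12% of the listed genes. Both shares come from a table selected with the same mdx/miR-133b-/- libraries, so they are not a neutral background. The median log2 difference was 0.01 over the members and -0.04 over all listed genes.

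mt-Tw had 567, 1206, 1092 and 966 scaled reads in the mdx/miR-133b-/- libraries, against 397, 448, 483 and 406 in the mdx libraries. Replicate 1 was the lowest mdx/miR-133b-/- library and still lay above every mdx library. The log2 difference was 1.09 ± 0.21 (SE; limma adjusted p = 0.00206), which is 2.13-fold higher. It remained called when any 1 library was left out.

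mt-Atp6 had 105, 156, 111 and 115 scaled reads in the mdx/miR-133b-/- libraries, against 45.6, 56.9, 86.1 and 74.7 in the mdx libraries, again with no overlap. Groups that did not overlap, higher, made up 10.3% of the listed genes. The log2 difference was 0.90 ± 0.25 (SE; limma adjusted p = 0.0196), which is 1.87-fold higher. Without mdx replicate 1 it was 0.74 and missed the threshold (limma adjusted p = 0.0732), and likewise with trends on GC content and length removed, at 0.83 (limma adjusted p = 0.0688).

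mt-Nd4 had 28421, 41063, 32352 and 39795 scaled reads in the mdx/miR-133b-/- libraries, against 46901, 47662, 66846 and 45477 in the mdx libraries. The groups did not overlap, as for 16.2% of the listed genes in the lower direction, but the log2 difference of -0.54 ± 0.23 (SE) did not pass the test (limma adjusted p = 0.112). It passed in a fit to those 8 libraries alone (limma adjusted p = 0.046), with trends on GC content and length removed, at -0.82 (limma adjusted p = 0.0274), and without miR-133b-/- replicate 2 (limma adjusted p = 0.0351). With scaling to the listed reads outside the mitochondrial genome it was -0.20 (limma adjusted p = 0.418).

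The other 6 members had overlapping groups and log2 differences between -0.31 for mt-Nd1 and 0.20 for mt-Nd5. The 95% interval for mt-Cytb was -0.41 to 0.44 and that for mt-Nd2 was -0.50 to 0.54. mt-Tm, the other transfer RNA gene, had a log2 difference of 0.01 with an interval of -0.85 to 0.87. With trends on GC content and length removed mt-Tm had 0.85 and did not pass (limma adjusted p = 0.113), and mt-Tw had 1.77 (limma adjusted p = 0.000858). Both values depend on a length trend that was not tested for such short genes. Whether mt-Tw and mt-Tm differ in this contrast was not tested.

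Within a library, mt-Tw came to 13.5, 23.9, 22.6 and 16.8 reads per 1000 reads of its neighbour mt-Nd2 in the mdx/miR-133b-/- libraries, against 8.48, 10.4, 8.31 and 8.54 in the mdx libraries. All mdx/miR-133b-/- libraries lay above all mdx libraries, free of any scaling. Reads of mt-Atp6 per 1000 reads of mt-Co2 ran between 317 and 526 in mdx/miR-133b-/- and between 129 and 240 in mdx libraries. By contrast mt-Tm per 1000 reads of mt-Nd2 overlapped, at 0.560 to 1.003 in mdx/miR-133b-/- and 0.482 to 1.01 in mdx libraries. The share of listed reads taken by the 9 members was 22.4%, 28.9%, 29.98% and 34.3% in the mdx/miR-133b-/- libraries and overlapped that of the mdx libraries, with means of 28.9 ± 4.93% in mdx/miR-133b-/- and 25.2 ± 1.76% in mdx (SD, n = 4 each).

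**Figure D3:**
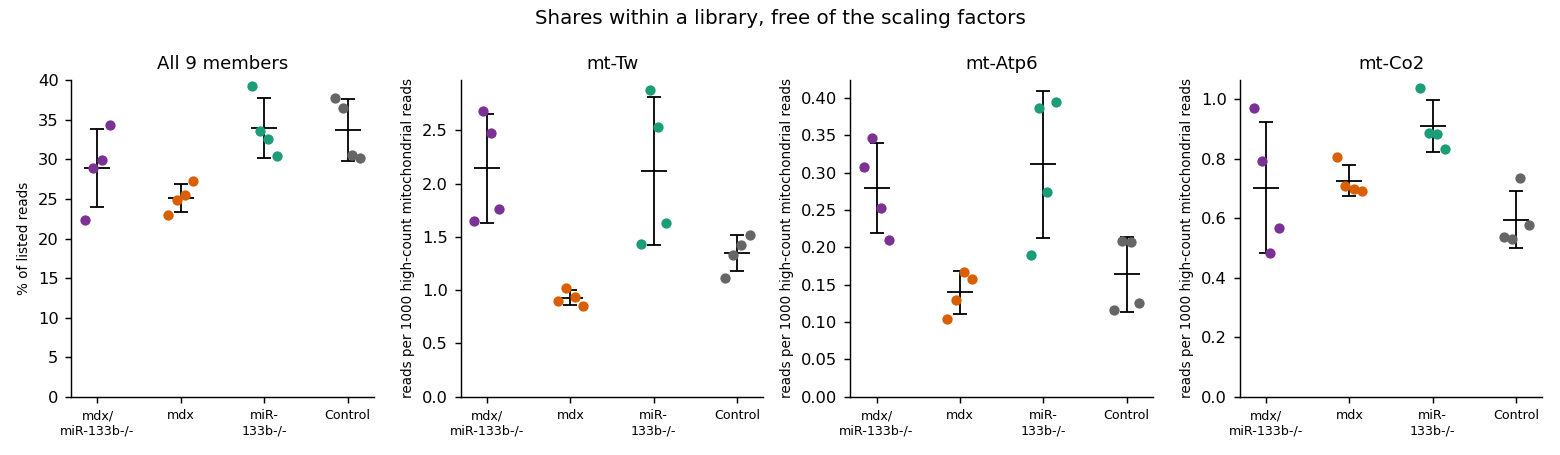
Quantities that need no scaling factor, in each library, with the mean (long dash) and SD (n = 4 per group): the percentage of listed reads taken by the 9 members, and reads of mt-Tw, mt-Atp6 and mt-Co2 per 1000 reads of the 5 high-count members. For mt-Tw and mt-Atp6 every mdx/miR-133b-/- library lies above every mdx library, while their miR-133b-/- and Control libraries overlap. For mt-Co2 every miR-133b-/- library lies above every Control library.

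The nuclear subunits gave other counts in this comparison. Of the 10 listed, 6 fell in mdx/miR-133b-/- compared with mdx muscle, where 12% of all listed genes were called lower, and their median log2 difference was -0.73. Since the mdx/miR-133b-/- libraries are part of the selection of the table, 12% is not a neutral background. Ndufb5, a membrane-arm subunit of complex I, averaged 2441 ± 322 in mdx/miR-133b-/- and 5794 ± 887 scaled reads in mdx libraries (SD, n = 4 each), and fell by 1.24 on the log2 scale (limma adjusted p = 0.000948). Ndufs8, an iron-sulphur subunit of complex I, averaged 742 ± 188 in mdx/miR-133b-/- and 1338 ± 141 scaled reads in mdx libraries, and fell by 0.88 on the log2 scale (limma adjusted p = 0.00712). Cox5a averaged 6868 ± 1663 in mdx/miR-133b-/- and 14198 ± 1388 scaled reads in mdx libraries, and fell by 1.07 on the log2 scale (limma adjusted p = 0.00399). Atp5a1, the alpha subunit of ATP synthase, fell by 0.75 on the log2 scale (limma adjusted p = 0.0242), whereas Atp5f1 and Uqcr10 had log2 differences of -0.33 and -0.31 and did not pass. Of the 4 citrate cycle genes 1 fell, Idh3b of the isocitrate dehydrogenase, by 0.49 on the log2 scale (limma adjusted p = 0.0476). The fumarase Fh1 had -0.66 and did not pass (limma adjusted p = 0.0725). Ppara and Perm1 had log2 differences of -0.05 and -0.24 and did not pass either. Of the mitochondrially encoded partners, mt-Nd1, mt-Nd2, mt-Nd5, mt-Cytb and mt-Co2 had log2 differences between -0.31 and 0.20, and none passed the test. The complex I subunit mt-Nd4 had -0.54 and did not pass (limma adjusted p = 0.112). The complex V subunit mt-Atp6 was called higher, at 0.90 (limma adjusted p = 0.0196). Whether both groups of genes differ from each other in this contrast was not tested. Values of the nuclear subunits are given for the deposited scaling only. Higher genes made up 38.3% of the calls in this contrast as deposited. They made up 81.4% with scaling to the listed reads outside the mitochondrial genome.

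**Figure D4:**
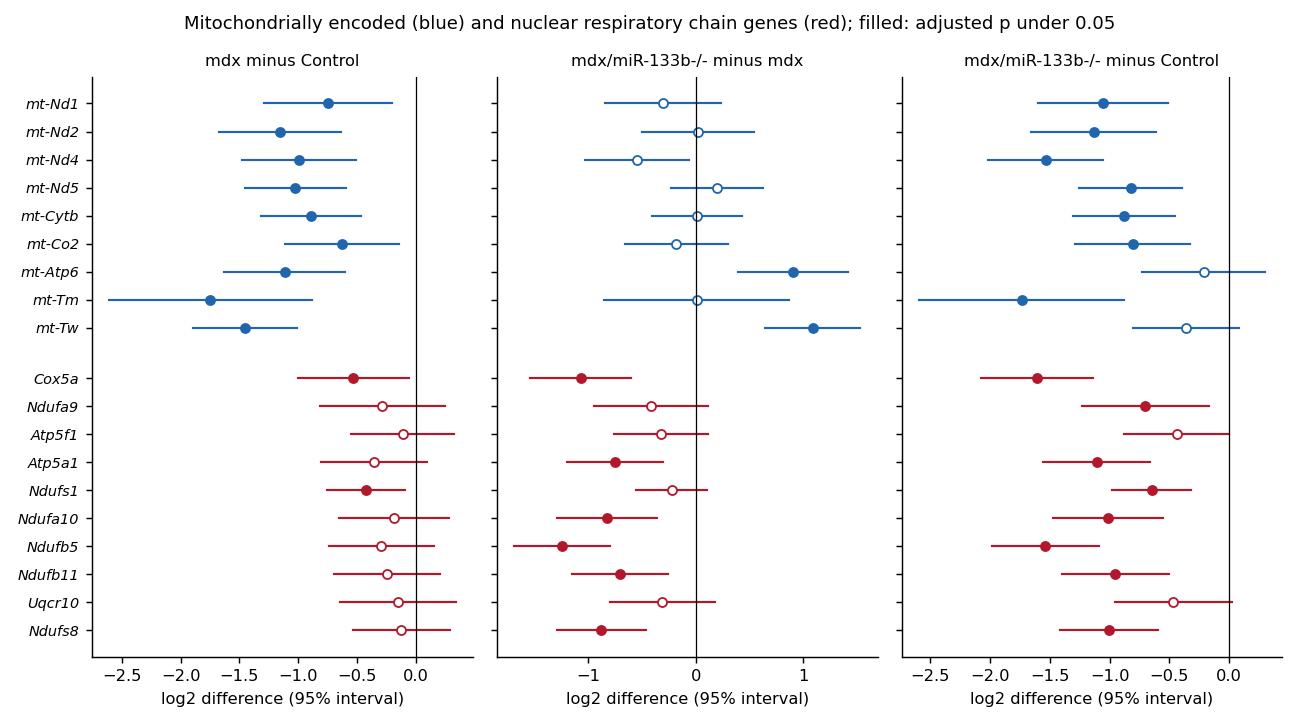
Log2 differences with 95% intervals for the 9 mitochondrially encoded members (blue) and the 10 listed nuclear subunits of the respiratory complexes (red) in 3 comparisons; filled points passed the test. In mdx minus Control 9 blue and 2 red points are filled, and in mdx/miR-133b-/- minus mdx 2 blue points are filled to the right of 0 and 6 red points to the left.

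Values of the marker lists in the same contrast overlapped between groups for macrophages, regenerating fibres and fibroblasts and matrix. Fast-fibre markers summed to between 256312 and 320334 in mdx/miR-133b-/- and between 375355 and 552424 in mdx libraries, without overlap. The listed markers passed a selection that used the same mdx/miR-133b-/- libraries. The part of fibre content in these results was not tested.

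Loss of miR-133b with dystrophin present was addressed by miR-133b-/- against Control muscle. By limma, 0 of the 831 listed genes (0%) passed, the members included, although 84 had an unadjusted p under 0.05; limma-voom on the recovered reads also called 0. Among the members, 3 of the 4 low-count ones had an unadjusted p under 0.05.

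mt-Atp6 had 249, 249, 245 and 340 scaled reads in the miR-133b-/- libraries, against 134, 190, 148 and 101 in the Control libraries. All miR-133b-/- libraries lay above all Control libraries, which held for 2.77% of the listed genes. The log2 difference was 0.93 ± 0.25 (SE; limma adjusted p = 0.272), with a 95% interval of 0.42 to 1.45 before any adjustment. mt-Tw had 1885, 1852, 2267 and 1406 scaled reads in the miR-133b-/- libraries, against 1299, 1214, 1020 and 1220 in the Control libraries, also without overlap, and a log2 difference of 0.63 ± 0.21 (SE; limma adjusted p = 0.352).

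mt-Co2 had 1363, 570, 790 and 719 scaled reads in the miR-133b-/- libraries, against 623, 485, 528 and 463 in the Control libraries. Replicate 1 was far higher than the others, and replicate 2 lay below the highest Control library. The log2 difference was 0.64 ± 0.23 (SE; limma adjusted p = 0.359), and without miR-133b-/- replicate 1 it was 0.40. With trends on GC content and length removed, the differences of mt-Atp6, mt-Tw and mt-Co2 were 0.62, 0.18 and 0.36. Per 1000 reads of the high-count members, mt-Co2 ran between 0.834 and 1.04 in miR-133b-/- and between 0.531 and 0.735 in Control libraries, without overlap. By the same measure the groups overlapped for mt-Atp6 and mt-Tw. mt-Atp6 ran between 0.189 and 0.394 in miR-133b-/- and between 0.116 and 0.208 in Control libraries. mt-Tw ran between 1.43 and 2.87 in miR-133b-/- and between 1.12 and 1.52 in Control libraries.

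For the 5 high-count members and mt-Tm the groups overlapped, and log2 differences lay between -0.26 for mt-Nd4 and 0.11 for mt-Nd5. For some members 1 miR-133b-/- library lay far from the others. mt-Nd1 had 534198 scaled reads in replicate 1 and 200433 to 257167 in the others, and mt-Nd2 had 51671 in replicate 2 and 121988 to 132995 in the others. The coefficient of variation of mt-Nd1 was 53.1% in miR-133b-/- and 23.4% in Control libraries, whereas that of mt-Atp6 was 17.0% in miR-133b-/- and 25.8% in Control libraries. The share of listed reads averaged 34.0 ± 3.76% in miR-133b-/- and 33.7 ± 3.89% in Control libraries (SD, n = 4 each).

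In mdx/miR-133b-/- compared with Control muscle 7 of the 9 members fell, and 36.9% of the listed genes were called lower. This comparison shares its mdx/miR-133b-/- libraries with the contrast against mdx and with the selection of the table. In the contrast of the selection all 9 members had a lower mean, as did 40.1% of the listed genes. The 36.9% is therefore not a neutral background. mt-Nd4 had 28421, 41063, 32352 and 39795 scaled reads in the mdx/miR-133b-/- libraries, against 111209, 97970, 86476 and 113040 in the Control libraries. The groups lay far apart, and the log2 difference was -1.54 ± 0.23 (SE; limma adjusted p = 2.47e-05). The other high-count members had log2 differences between -1.14 for mt-Nd2 and -0.83 for mt-Nd5, mt-Co2 one of -0.81 and mt-Tm one of -1.74.

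The exceptions were again mt-Tw and mt-Atp6. mt-Tw averaged 958 ± 278 in mdx/miR-133b-/- and 1188 ± 119 scaled reads in Control libraries (SD, n = 4 each), with a log2 difference of -0.36 and a 95% interval of -0.80 to 0.08 (limma adjusted p = 0.111). mt-Atp6 averaged 122 ± 22.9 in mdx/miR-133b-/- and 143 ± 37.02 scaled reads in Control libraries, with a log2 difference of -0.21 and an interval of -0.73 to 0.30 (limma adjusted p = 0.401). Groups overlapped for both. With scaling to the listed reads outside the mitochondrial genome, 3 of the 9 members were called lower, and the differences of mt-Tw and mt-Atp6 turned to 0.31 and 0.45 without passing the test. With trends on GC content and length removed, mt-Tw was called higher instead, at 1.07 (limma adjusted p = 0.00299), and mt-Tm had -0.10. How well the length trend holds for these short genes was not tested. With relative log expression factors both mt-Tw and mt-Atp6 were called lower, at -0.76 and -0.61 (limma adjusted p = 0.0102 and 0.035), and all 9 members passed. Of the 10 listed nuclear subunits 8 fell, beside the same 36.9% of all listed genes, with the same limit from the selection.

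Whether losing miR-133b did the same with and without dystrophin was tested as an interaction, the mdx/miR-133b-/- minus mdx difference less the miR-133b-/- minus Control difference. By limma, 0 of the 9 members and 8 of the 831 listed genes passed, or 0.963%; 1 member had an unadjusted p under 0.05. That member was mt-Co2, with an interaction of -0.82 ± 0.33 (SE; limma adjusted p = 0.188). Without miR-133b-/- replicate 2 it was -0.995 and passed (limma adjusted p = 0.044). In that fit many more listed genes were called for the interaction as well, as counted in the closing section. For mt-Tw the interaction was 0.47 with a 95% interval of -0.16 to 1.09, and for mt-Atp6 it was -0.03 with an interval of -0.76 to 0.70. With trends on GC content and length removed, the interaction was 1.59 for mt-Tw, 1.32 for mt-Tm and -0.53 for mt-Co2, and none passed (limma adjusted p = 0.138, 0.18 and 0.354). The values of mt-Tw and mt-Tm depend on a length trend not tested for such short genes.

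The contrast of mdx/miR-133b-/- with miR-133b-/- muscle is the one on which the listed genes differ by construction, so it is described without a test. All 9 members had a lower mean in mdx/miR-133b-/- than in miR-133b-/- libraries, as did 40.1% of the listed genes. The ratio of the miR-133b-/- mean to the mdx/miR-133b-/- mean ran between 1.81 for mt-Cytb and 3.46 for mt-Tm. Groups overlapped for mt-Nd2 and for none of the other 8, while 30.7% of the listed genes had mdx/miR-133b-/- libraries that lay below all miR-133b-/- libraries.

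By Pearson's r with the summed high-count members over the 16 libraries, the listed genes most alike in pattern were Gpd2 at 0.96, Art3 at 0.95, Gm8116 at 0.94, Abcd2 at 0.92 and Glrx2 at 0.92. Gpd2 encodes the mitochondrial glycerol-3-phosphate dehydrogenase and Glrx2 a mitochondrial glutaredoxin. With group means taken off, the order was Glrx2 at 0.88, Tmem267 at 0.85, Dnajc21 at 0.83, Gpd2 at 0.82 and Polr2m at 0.82. These values share each library's scaling factor and are given as a description.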

How the data were processed

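Total RNA of whole tibialis anterior was sequenced in 16 libraries. The submitters' processing notes name HISAT2, HTSeq and the build GRCm38, with no version of either tool. The deposited table holds a signal value per gene and library. Each value was a whole number of reads times 1 factor per library between 0.459 and 1, within 0.001 read for 100% of 13296 values. Symbols, coordinates and sequences came from GENCODE transcripts of GRCm38, matched for all 831 identifiers.

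limma 3.58.1 in R 4.3.3 was fitted to log2(value + 1) over all 16 libraries with 1 mean per group, a prior variance that follows the mean level, and p-values adjusted by Benjamini-Hochberg across all 831 genes with a threshold of 0.05. It was checked on simulated data. Fold changes are on this scale, so those of genes with few reads are understated. The deposited values are not counts, so a count model was not used; limma-voom on the recovered reads was an alternative chosen after seeing the data. Members were kept apart at a mean of 1000; mt-Tw, at 1108, was put with the low-count members as a transfer RNA. Members and lists were chosen with earlier results of these data known. All members are named. From each pathway list the 2 genes with the lowest p in mdx minus Control and in mdx/miR-133b-/- minus mdx were named, and other genes by their correlation with the summed high-count members. Further lists held 4 of 9 slow-fibre markers, 1 of 7 endothelial and 1 of 8 lymphocyte markers, with summed values by group given in the closing section, and none of those for smooth muscle, neutrophils, erythrocytes or adipocytes.

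The replicate numbers did not pair the libraries. Same-numbered libraries had deviations correlated above 0.1 in 2 of 24 pairs. Within groups no pair of libraries differed by as little as sampling noise, the lowest chi-square per degree of freedom being 38.4.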

Additional observations from a re-analysis of the deposited data

Results flagged for a closer look

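In 4 of the 36 groups of 4 libraries over the 9 members, 1 library stood apart from the other 3 by Dixon's criterion, which chance meets in about 1 in 20 groups. mt-Nd1 had 534198 scaled reads in miR-133b-/- replicate 1, above the other replicates. mt-Nd2 had 51671 scaled reads in miR-133b-/- replicate 2, below the others. mt-Atp6 had 340 scaled reads in miR-133b-/- replicate 4 and 245 to 249 in the others. mt-Nd4 had 66846 scaled reads in mdx replicate 3, above the others. Of these 4 libraries, 3 belong to the miR-133b-/- group.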

How the results depend on the processing

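Counts of called members kept their direction under upper quartile factors, pseudocounts of 0.5 and 10, no variance trend, the replicate block and limma-voom on the recovered reads, with 9 members called in mdx minus Control, 2 in mdx/miR-133b-/- minus mdx and 7 in mdx/miR-133b-/- minus Control in each. A planned edgeR test was not run, since the deposited values are not counts. The replicate numbers do not pair the libraries, as 1 of 16 correlated best with its own number; the fit with the replicate block called 541, 0, 120, 749 and 7 listed genes in mdx minus Control, miR-133b-/- minus Control, mdx/miR-133b-/- minus mdx, mdx/miR-133b-/- minus Control and the interaction, against 550, 0, 162, 758 and 8 without it. Depth limits mt-Tm and mt-Atp6, with 34 to 345 and 83 to 717 reads per library.

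Scaling moved the median of all listed genes. In mdx minus Control it was 0.44 as deposited, 0.09 with relative log expression factors, 0.37 with upper quartile factors and 0.77 with scaling to reads outside the mitochondrial genome. The median of the members less that of all genes was -1.47 in each. This is fixed in advance, since a new factor per library shifts the log2 differences of all genes nearly alike. Higher genes made up 67.3% of the calls as deposited, 49.1% with relative log expression factors and 85.8% with scaling to reads outside the mitochondrial genome in that comparison. They made up 38.3% as deposited and 81.4% with the last scaling in mdx/miR-133b-/- minus mdx. In mdx/miR-133b-/- minus Control they made up 59.5% as deposited, 49.3% with relative log expression factors and 86.0% with the last scaling. With that scaling 102 listed genes were called in mdx/miR-133b-/- minus mdx and 3 members in mdx/miR-133b-/- minus Control. Removing trends on GC content and length left 55 called genes in mdx/miR-133b-/- minus mdx and 5 for the interaction, a minimum mean of 100 left 4 for the interaction with fewer genes tested, and relative log expression factors gave 14. Grouping by the code in the description field, which mixes the title groups in every group, gave 0 calls in all 5 comparisons, members included. The mitochondrial share was 29.7% in the group it names mdx. The cause of these shifts was not tested.

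Leaving out 1 library at a time gave 7 to 9 called members in mdx minus Control, 1 to 3 in mdx/miR-133b-/- minus mdx, 7 to 8 in mdx/miR-133b-/- minus Control and 0 to 1 for the interaction. Called listed genes ran between 49 and 197 in mdx/miR-133b-/- minus mdx, with 71, 56 and 84 without mdx replicates 1, 3 and 4 and 70 and 49 without mdx/miR-133b-/- replicates 3 and 4. For the interaction they ran between 7 and 110, with 110 without miR-133b-/- replicate 2 and 15 without mdx/miR-133b-/- replicate 1.

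Most changes of sign concerned differences near 0 that passed no test. With relative log expression factors, the log2 difference was 0.057 for mt-Tm, 0.070 for mt-Nd2 and 0.11 for mt-Cytb in miR-133b-/- minus Control. It was -0.034 for mt-Tm, -0.023 for mt-Nd2 and -0.032 for mt-Cytb in mdx/miR-133b-/- minus mdx. It was -0.091 for mt-Tm, -0.093 for mt-Nd2, -0.11 for mt-Nd5 and -0.15 for mt-Cytb for the interaction. With scaling to the listed reads outside the mitochondrial genome, the log2 difference was 0.037 for mt-Nd1 and 0.16 for mt-Co2 in mdx/miR-133b-/- minus mdx. It was 0.31 for mt-Tw and 0.45 for mt-Atp6 in mdx/miR-133b-/- minus Control. It was 0.32 for mt-Atp6 and 0.075 for mt-Nd4 for the interaction. With trends on GC content and length removed, the log2 difference was -0.20 for mt-Nd1 and -0.11 for mt-Nd5 in miR-133b-/- minus Control. It was -0.17 for mt-Nd2, -0.090 for mt-Nd5 and -0.085 for mt-Cytb in mdx/miR-133b-/- minus mdx. It was 1.07 for mt-Tw in mdx/miR-133b-/- minus Control. It was 0.21 for mt-Atp6 for the interaction. With a pseudocount of 10, the log2 difference was -0.0037 for mt-Tm in mdx/miR-133b-/- minus mdx. With limma-voom on the recovered reads, the log2 difference was -0.041 for mt-Tm in mdx/miR-133b-/- minus mdx. With groups taken from the code in the description field, the log2 difference was 0.29 for mt-Tw and 0.27 for mt-Atp6 in mdx minus Control. It was -0.44 for mt-Nd1, -0.43 for mt-Co2 and -0.055 for mt-Nd5 in miR-133b-/- minus Control. It was 0.072 for mt-Nd1, -0.062 for mt-Tm, -0.21 for mt-Tw, 0.025 for mt-Co2, -0.060 for mt-Atp6, 0.18 for mt-Nd4 and -0.0099 for mt-Cytb in mdx/miR-133b-/- minus mdx. It was 0.014 for mt-Nd2, 0.072 for mt-Tw, 0.21 for mt-Atp6 and 0.14 for mt-Nd4 in mdx/miR-133b-/- minus Control. It was 0.51 for mt-Nd1, -0.50 for mt-Tw, 0.45 for mt-Co2 and 0.38 for mt-Nd4 for the interaction. Of these, the value of mt-Tw with trends removed passed the test and the others did not. With 1 library left out, log2 differences ran -0.14 to 0.13 for mt-Cytb, -0.26 to 0.21 for mt-Nd1, -0.21 to 0.24 for mt-Nd2, -0.034 to 0.25 for mt-Nd5 and -0.40 to 0.33 for mt-Tm in miR-133b-/- minus Control. They ran -0.049 to 0.14 for mt-Cytb, -0.054 to 0.11 for mt-Nd2 and -0.29 to 0.18 for mt-Tm in mdx/miR-133b-/- minus mdx. They ran -0.19 to 0.13 for mt-Atp6, -0.12 to 0.18 for mt-Cytb, -0.22 to 0.23 for mt-Nd2, -0.055 to 0.24 for mt-Nd5 and -0.32 to 0.41 for mt-Tm for the interaction, and those at a changed sign passed no test.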

Other observations

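Other cell type lists were read from the same table, so they hold only markers that passed its selection. Summed over 4 of 9 slow-fibre markers, scaled reads ran between 3117 and 7814 in mdx/miR-133b-/-, between 5010 and 6182 in mdx, between 1445 and 2485 in miR-133b-/- and between 1654 and 2709 in Control libraries. Flt1, a receptor of endothelial cells and the 1 endothelial marker of 7 that was listed, ran between 854 and 1650 in mdx/miR-133b-/-, between 856 and 1301 in mdx, between 2077 and 2263 in miR-133b-/- and between 1687 and 2039 in Control libraries. Ighm, the antibody heavy chain of B cells and the 1 lymphocyte marker of 8 that was listed, ran between 38.4 and 122 in mdx/miR-133b-/-, between 102 and 312 in mdx, between 190 and 1108 in miR-133b-/- and between 184 and 1230 scaled reads in Control libraries.

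The proportion of mt-Nd1 to mt-Nd4 reads, genes at opposite ends of the order of levels among the high-count members, ran between 2.93 and 4.49 in mdx/miR-133b-/-, between 2.41 and 3.64 in mdx, between 1.72 and 4.84 in miR-133b-/- and between 1.96 and 3.23 in Control libraries. Reads of Gm28439 per 1000 reads of mt-Nd4 ran between 1.77 and 2.78 in mdx/miR-133b-/-, between 0.900 and 1.87 in mdx, between 1.08 and 3.48 in miR-133b-/- and between 1.23 and 2.15 in Control libraries. Since Gm28439 matches mt-Nd4 without a mismatch, this ratio may count mitochondrial reads on both sides. Within the high-count members mt-Nd5 held between 29.1% and 33.0% of the reads in mdx/miR-133b-/- and between 25.3% and 27.0% in mdx libraries, without overlap, and mt-Nd4 held between 7.24% and 9.14% in mdx/miR-133b-/- and between 9.58% and 13.0% in mdx libraries, again without overlap.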
